A study of Mus musculus with 7 samples.

Results

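The variable segments of the immunoglobulin light chains were read out in neuron-enriched cells of injured mouse dorsal root ganglia. Members were taken by symbol: every gene of the table whose name begins with Igkv (kappa) or Iglv (lambda), which gave 163 of 54309 genes, 160 of them kappa and 3 lambda. The question behind the series is how the hour of injury tunes regrowth of axons. Male C57bl/6 mice of 6 to 8 weeks received a sciatic nerve injury at Zeitgeber time (ZT, hours from lights on) 20 or 8. The L4-6 ganglia were collected 72 h later, so injury and collection fell at the same ZT within a group. There were 4 libraries at ZT20 and 3 at ZT8, all from injured animals, and none from uninjured ganglia was analysed here. The ganglia were digested with enzymes and run through an albumin gradient that enriches neurons. Values are in TPM, the relative abundance of a transcript, scaled by its length and by a total that is the same in each library. The depth behind them is unknown.

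An antibody light chain is made from 1 variable segment joined to a short joining segment and spliced to a constant region. Each B cell makes this choice once and its daughter plasma cells, which secrete antibody, keep it. The kappa locus carries many variable segments upstream of 1 constant gene, Igkc, while the mouse lambda locus carries few, each used with particular constant genes. A tissue that holds few plasma cell clones can therefore show few segments, and which ones they are can differ between animals. In bulk libraries, fewer cells of a type and less RNA per cell cannot be told apart. The labels do not say that the replicates are separate animals, so the p-values below measure the spread between these samples.

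Some libraries went against their labels or stood apart. The Y-linked transcript Ddx3y was listed at 0 in ZT20 replicates 3 and 4 and was at 11.7 to 24.2 TPM in the other 5 libraries. Xist, the RNA of the inactive X chromosome, reached 2.21 and 2.30 TPM in those 2 libraries and 1.08 TPM in ZT20 replicate 2, although all are labelled male. The tissue label held: 9 neuron markers summed to 16702 to 21712 TPM at ZT20 and 13302 to 20467 TPM at ZT8. Library identifiers were numbers at ZT20 and letters at ZT8, so a batch behind them and the group cannot be told apart.

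The sequences show how alike the leading segments are to their closest relatives, which bears on how reads could be told apart. All 163 segments were found by Ensembl identifier in GENCODE M21 (GRCm38), the kappa segments on chromosome 6 and the lambda segments on chromosome 16. Of these, 103 are annotated as variable genes and 60 as pseudogenes. The submitters' processing notes name another build, so no positions are given. The 5 segments that held first place in at least 1 library follow, each with its nearest relative beneath it. The runs are the spliced coding sequence of the reference, 5′ to 3′ in the sense of transcription, from 250 bases before the 3′ end of the leading segment. Capitals mark bases that differ from the other member of the pair or have no counterpart in it.
Iglv1: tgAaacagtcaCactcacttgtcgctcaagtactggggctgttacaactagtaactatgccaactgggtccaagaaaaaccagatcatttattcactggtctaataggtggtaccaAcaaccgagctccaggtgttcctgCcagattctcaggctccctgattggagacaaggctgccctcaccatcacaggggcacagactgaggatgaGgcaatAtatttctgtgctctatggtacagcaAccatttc
Iglv2: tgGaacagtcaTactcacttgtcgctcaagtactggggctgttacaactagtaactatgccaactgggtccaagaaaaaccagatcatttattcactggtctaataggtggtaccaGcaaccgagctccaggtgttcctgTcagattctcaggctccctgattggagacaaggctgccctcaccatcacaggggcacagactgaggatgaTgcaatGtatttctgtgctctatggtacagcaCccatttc
Igkv8-30: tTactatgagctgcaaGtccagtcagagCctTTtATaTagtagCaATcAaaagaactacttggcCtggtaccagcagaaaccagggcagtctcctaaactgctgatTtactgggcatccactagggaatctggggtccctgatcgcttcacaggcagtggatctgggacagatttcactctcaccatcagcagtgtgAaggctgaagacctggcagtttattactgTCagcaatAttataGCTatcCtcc
Igkv8-21: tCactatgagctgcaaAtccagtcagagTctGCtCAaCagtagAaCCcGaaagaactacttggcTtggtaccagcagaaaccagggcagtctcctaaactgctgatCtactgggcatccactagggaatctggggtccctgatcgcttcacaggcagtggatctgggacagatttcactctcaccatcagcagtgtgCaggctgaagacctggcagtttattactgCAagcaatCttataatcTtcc
Igkv8-28: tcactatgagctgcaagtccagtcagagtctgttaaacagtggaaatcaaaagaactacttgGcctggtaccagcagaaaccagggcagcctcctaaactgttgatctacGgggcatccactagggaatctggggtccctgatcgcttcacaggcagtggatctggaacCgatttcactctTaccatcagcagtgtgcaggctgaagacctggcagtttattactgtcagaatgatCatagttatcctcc
Igkv8-19: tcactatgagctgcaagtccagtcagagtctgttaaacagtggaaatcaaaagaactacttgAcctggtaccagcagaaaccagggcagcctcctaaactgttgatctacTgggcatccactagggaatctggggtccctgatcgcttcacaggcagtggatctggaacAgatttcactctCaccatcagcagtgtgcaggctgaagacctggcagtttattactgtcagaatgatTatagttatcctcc
Igkv4-59: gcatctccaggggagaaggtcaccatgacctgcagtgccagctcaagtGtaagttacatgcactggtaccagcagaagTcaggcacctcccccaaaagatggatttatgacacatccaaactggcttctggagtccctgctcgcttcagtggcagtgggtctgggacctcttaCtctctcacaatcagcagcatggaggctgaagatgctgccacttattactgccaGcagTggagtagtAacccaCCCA
Igkv4-70: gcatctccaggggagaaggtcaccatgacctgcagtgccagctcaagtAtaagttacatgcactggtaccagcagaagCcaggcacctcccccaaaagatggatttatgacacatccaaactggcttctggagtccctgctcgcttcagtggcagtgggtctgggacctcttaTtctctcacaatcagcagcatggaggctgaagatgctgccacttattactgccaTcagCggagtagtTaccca
Igkv6-17: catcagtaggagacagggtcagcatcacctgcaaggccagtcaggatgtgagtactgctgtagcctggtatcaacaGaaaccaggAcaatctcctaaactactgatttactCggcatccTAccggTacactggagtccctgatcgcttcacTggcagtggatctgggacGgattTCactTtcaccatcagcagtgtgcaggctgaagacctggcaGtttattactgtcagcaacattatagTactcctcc
Igkv6-25: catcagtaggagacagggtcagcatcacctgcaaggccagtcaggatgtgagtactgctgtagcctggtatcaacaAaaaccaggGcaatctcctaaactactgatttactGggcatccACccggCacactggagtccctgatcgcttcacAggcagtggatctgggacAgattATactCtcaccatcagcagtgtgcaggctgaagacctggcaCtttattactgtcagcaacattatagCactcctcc

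Between the first and the last aligned base of the whole coding part, with gaps inside it counted and unpaired bases at the ends left out, Iglv1 and Iglv2 differed at 11 positions of the alignment, Igkv8-28 and Igkv8-19 at 9, and Igkv4-59 and Igkv4-70 at 9. Igkv6-17 and Igkv6-25 differed at 15, and Igkv8-30 and Igkv8-21 at 27. Identity was 96.9%, 97.5%, 97.4%, 95.7% and 92.6% in that order. These are germline sequences. Expressed light chains also carry the junction to the joining segment and, after an immune response, somatic mutations, so reads may match their own segment less than perfectly. Of the 163 segments, 65 had a relative of at least 95% identity, which left 124 groups of near-identical sequence. A 31-base word was shared with another segment in 34.0% of a segment's words at the median. Igkv4-59 shared 87.0% of its words, Igkv4-55 78.2% and Igkv3-5 76.1%. At the other end, Igkv19-93 and Iglv3 shared 0% and Igkv6-32 shared 2.08%, so few or none of their words are held by another segment.

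Light-chain variable transcripts were present in every library, at levels that differed by orders of magnitude. Summed over all members, ZT20 replicates 1 to 4 stood at 214, 2548, 1832 and 36.3 TPM. The ZT8 replicates stood at 10598, 3425 and 5413 TPM. All 3 ZT8 libraries lay above all 4 ZT20 libraries, but ZT20 replicate 2 was close to ZT8 replicate 2, and the ZT20 libraries spread widely. On the scale of log2(summed TPM + 1), the ZT20 mean came to 8.78 ± 2.85 (SD, n = 4) and the ZT8 mean to 12.5 ± 0.819 (SD, n = 3). No p-value is given for sums over the members. Without ZT20 replicates 3 and 4 the difference of these means was −2.97, against −3.72 with them. Leaving out 1 library gave −4.57 to −2.54, the latter without ZT20 replicate 4.

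The kappa segments together stood close to the level of the kappa constant region. Igkc was at 89.4, 2391, 1532 and 32.0 TPM at ZT20 and at 9809, 3096 and 4748 TPM at ZT8. The summed kappa segments came to 0.786, 1.00, 1.00 and 1.00 times Igkc in ZT20 replicates 1 to 4 and to 1.05, 1.01 and 1.06 times in the ZT8 replicates. The library away from 1 was ZT20 replicate 1, where the kappa segments were at 70.3 TPM. Both levels are per length.

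**Figure D1:**
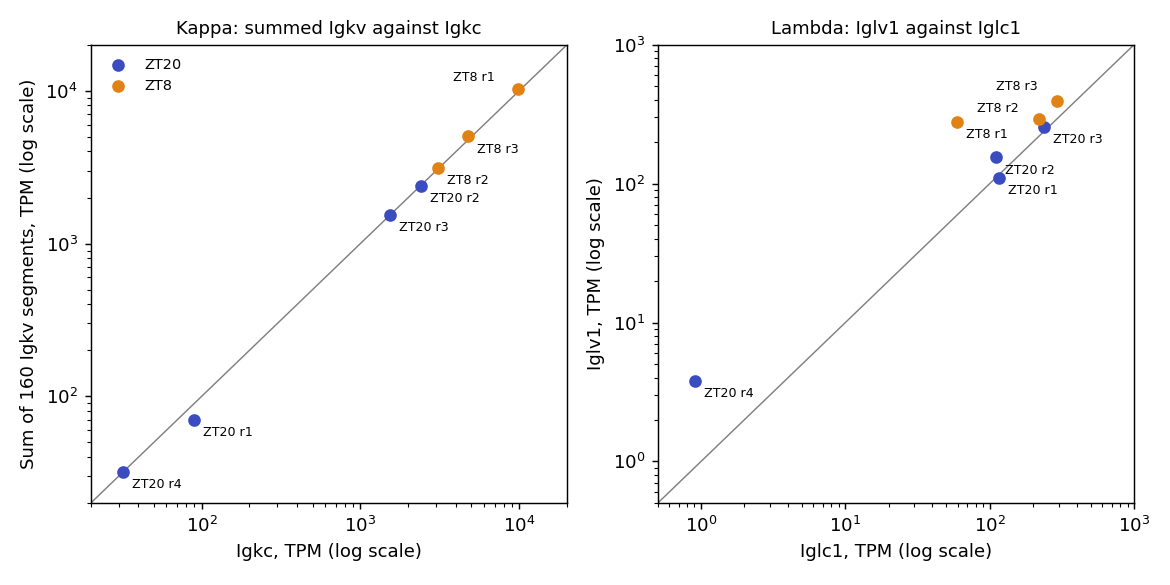
Each point is 1 library, ZT20 in blue and ZT8 in orange; both axes are TPM on a log scale and the grey line marks equal values. The summed Igkv segments lie on the line from 32.1 to 10306 TPM except in ZT20 replicate 1 (0.786 times Igkc), while Iglv1 lies farthest above Iglc1 in ZT20 replicate 4 and ZT8 replicate 1.

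A few segments carried most of the signal in each library. The number of segments needed to reach 50% of the light-chain variable TPM, taken from the most abundant down, was 1, 3, 6 and 2 in ZT20 replicates 1 to 4 and 4 in each of the 3 ZT8 replicates. To reach 90%, 5, 13, 20 and 14 segments were needed at ZT20 and 17, 12 and 12 at ZT8. The leading segment alone held 51.3%, 29.1%, 14.0% and 38.4% at ZT20 and 24.6%, 21.5% and 28.8% at ZT8. ZT20 replicate 1 was the most concentrated library and ZT20 replicate 3 the most even, with the ZT8 libraries between them. The effective number of segments (the inverse Simpson index, which equals the number of segments if all were used equally) was 3.14, 7.26, 14.9 and 4.95 at ZT20 and 9.27, 8.73 and 8.04 at ZT8. The group means of this number were 7.57 ± 5.18 (SD, n = 4) and 8.68 ± 0.617 (SD, n = 3), and the groups overlapped. The difference of −1.11 became 0.36 without ZT20 replicate 1. The 2 libraries with the fewest effective segments were also the 2 with the lowest summed TPM, ZT20 replicates 1 and 4. The part of low input in that was not tested.

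**Figure D2:**
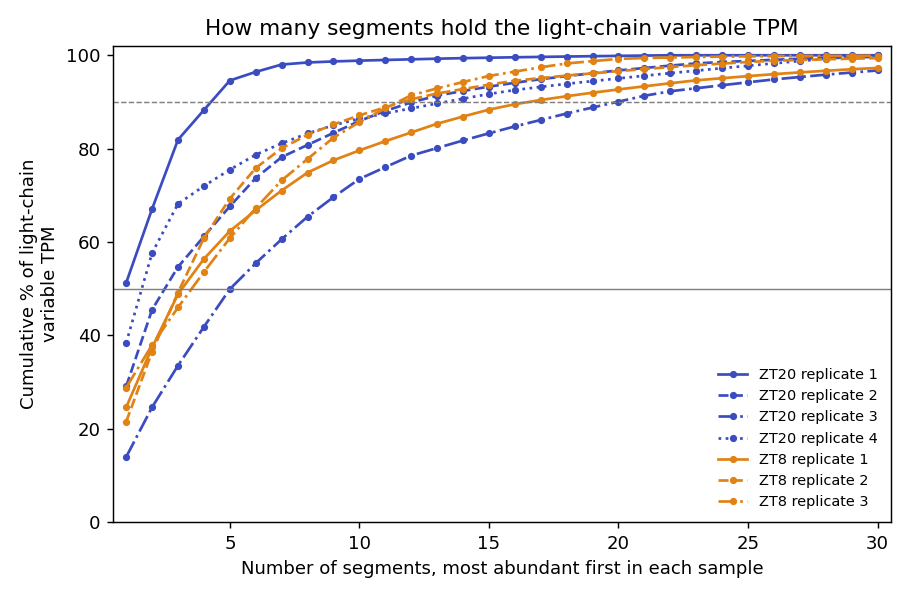
The curves add up the share of a library's light-chain variable TPM (y axis, %) over its segments from the most abundant down (x axis, first 30), with ZT20 libraries in blue and ZT8 libraries in orange. The grey lines mark 50% and 90%; ZT20 replicate 1 passes 50% with 1 segment and ZT20 replicate 3 needs 6, and the 3 ZT8 curves cross it at 4.

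Many more segments were listed than mattered. Above 0 TPM there were 22, 45, 65 and 30 segments at ZT20 and 63, 46 and 46 at ZT8. At or above 1 TPM there were 7, 33, 42 and 6 at ZT20 and 50, 38 and 27 at ZT8, so the 2 libraries with low sums also had the fewest. Across all libraries, 90 of the 163 segments were above 0 TPM at least once, 69 reached 1 TPM, 44 reached 1% of a library's light-chain variable TPM and 24 reached 5%. Of the 73 segments listed at 0 throughout, 52 are annotated pseudogenes. Only 8 of the 60 pseudogenes were above 0 TPM in any library. Together they held 0% to 3.81% of the TPM, and the highest single value was 9.18 TPM for Igkv4-73.

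First place went to 5 different segments in 7 libraries. Igkv8-30 led in ZT20 replicate 2 at 741 TPM and in ZT8 replicate 2 at 738 TPM. It was second in ZT8 replicate 1 at 1359 TPM, and in the other 4 libraries it was at 0.193 to 11.8 TPM. High and low libraries were found in both groups: ZT8 replicate 3, at 0.678 TPM, was below 3 of the 4 ZT20 libraries. Igkv4-59 led in ZT8 replicate 1 at 2608 TPM, the highest value of any segment. The next highest library for Igkv4-59 was ZT8 replicate 3 at 50.5 TPM. Igkv6-17 led in ZT8 replicate 3 at 1561 TPM, held 96.9 TPM in ZT8 replicate 1 and did not pass 6.33 TPM in the other 5 libraries. Both were thus dominant in a single library. Igkv8-28 led in ZT20 replicate 4 with only 13.9 TPM, and held 148 TPM in ZT20 replicate 3 and 54.7 TPM in ZT20 replicate 2. At ZT8 Igkv8-28 was at 0, 32.1 and 0.819 TPM. Iglv1 led in ZT20 replicates 1 and 3 and is described with the lambda segments.

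The next places were taken by further kappa segments. Igkv19-93 reached 419 TPM in ZT20 replicate 2 and 448, 145 and 246 TPM at ZT8. The other ZT20 libraries held 0, 23.0 and 0.379 TPM. It shares no 31-base word with another segment, and in the ZT8 libraries its share was steady at 4.22% to 4.55%. Igkv6-32 was at 233 TPM in ZT20 replicate 2 and 399 TPM in ZT8 replicate 2, and Igkv8-27 was at 512 TPM in ZT8 replicate 2. Igkv4-80 stood at 195 TPM in ZT20 replicate 3 and did not pass 1.35 TPM in every other library. Igkv6-25 was at 163 TPM in ZT20 replicate 3 and 122 TPM in ZT8 replicate 1. Igkv12-44 reached 152 TPM in ZT20 replicate 3 and 495 TPM in ZT8 replicate 3. Igkv6-23 reached 31.7 and 164 TPM in ZT20 replicates 1 and 2 and 349 TPM in ZT8 replicate 3. Igkv3-4 held 19.2% of ZT20 replicate 4 at only 6.99 TPM, although it was higher in TPM in ZT20 replicate 3 (25.2 TPM) and in all 3 ZT8 libraries (18.4 to 74.1 TPM).

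**Figure D3:**
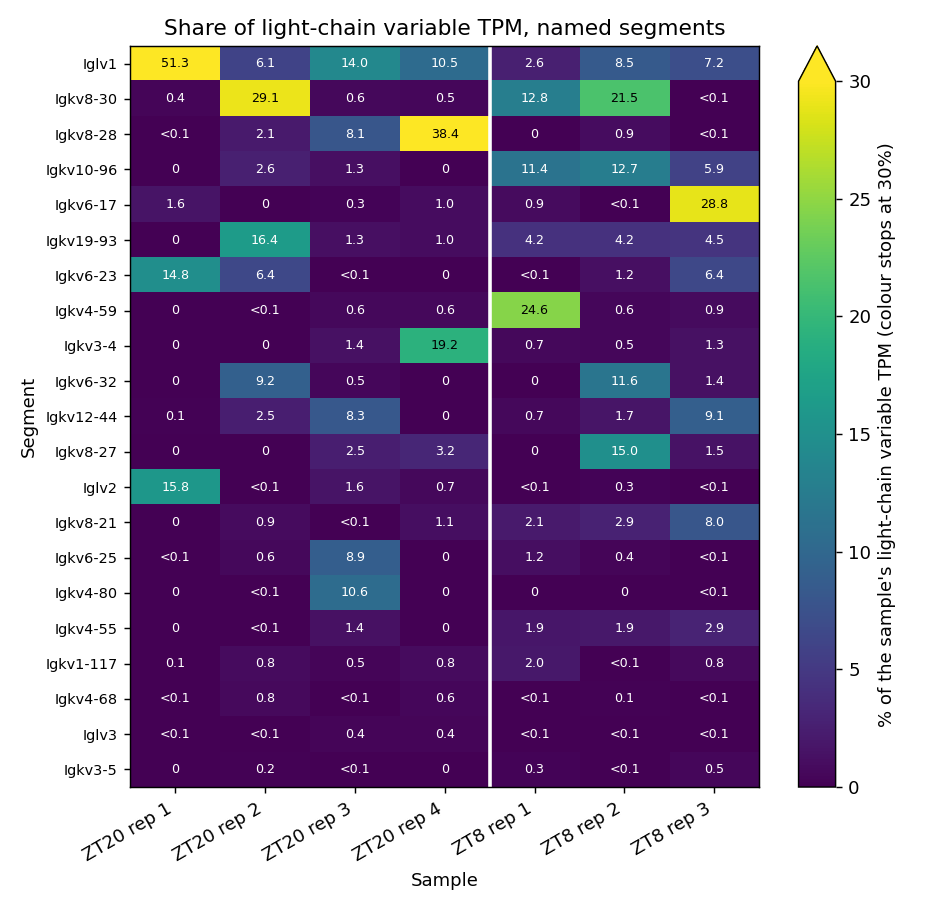
Each cell gives the percentage of a library's light-chain variable TPM held by 1 of the 21 named segments (rows, by mean share) in each of the 7 libraries (columns; the white line separates ZT20 from ZT8); the colour scale stops at 30%. Iglv1 is at or above 1% in all 7 libraries, whereas Igkv4-59, Igkv6-17 and Igkv4-80 stand out in 1 library each.

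Few segments recurred at a high share. Iglv1 was the only segment at or above 1% of the light-chain variable TPM in all 7 libraries; Igkv19-93 reached 1% in 6 and Igkv10-96 in 5. Of the 44 segments that reached 1% anywhere, 19 did so in a single library. Of the 24 that reached 5%, 16 did so in a single library. The shared usage of 2 libraries, the sum over segments of the smaller of the 2 percentages, was 27.3% to 42.8% within ZT8 (3 pairs) and 13.0% to 33.8% within ZT20 (6 pairs). Between the groups it was 7.42% to 50.9% (12 pairs). The pair that shared most, at 50.9%, joined ZT20 replicate 2 and ZT8 replicate 2, both led by Igkv8-30. Pairs that share a library are not independent, and no test was made. The 6 segments above 0 TPM in all 7 libraries were Iglv1, Iglv2, Iglv3, Igkv8-30, Igkv4-68 and Igkv1-117. Igkv4-68 stayed between 0.172 and 19.6 TPM, and Igkv1-117 between 0.251 and 209 TPM.

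Segment families, the groups of related sequence named by the first number of a symbol, were in part present throughout: 11 were above 0 TPM in all 7 libraries. The 163 segments fall into 23 families, of which 21 were above 0 TPM. The Igkv8 family (12 segments) held 0.627% to 43.7% of the TPM with a mean of 23.9% over the 7 libraries, and the Igkv6 family (9 segments) held 5.09% to 42.2%. The Igkv4 family is the largest with 33 segments and held 0.388% to 30.8%. Different members made up these shares: in the Igkv8 family Igkv8-30 led in ZT20 replicate 2, Igkv8-28 in ZT20 replicate 4 and Igkv8-21 in ZT8 replicate 3. The number after the dash in a kappa symbol counts outward from the joining segments, and over the 160 kappa segments it followed their distance from Igkj1 in GENCODE M21 (Spearman's rho 1 after rounding, across segments, which carry 136 distinct numbers). The 81 segments numbered 71 or lower held 64.8% to 98.0% of the kappa TPM, in ZT8 replicate 1 and ZT20 replicate 1 respectively. At this cut the distal segments held less than the proximal ones in every library. A narrower proximal set, numbered 40 or lower, held 37.8% in ZT20 replicate 3 and 35.1% in ZT8 replicate 1. In the other libraries it held 62.1% to 84.1%.

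**Figure D4:**
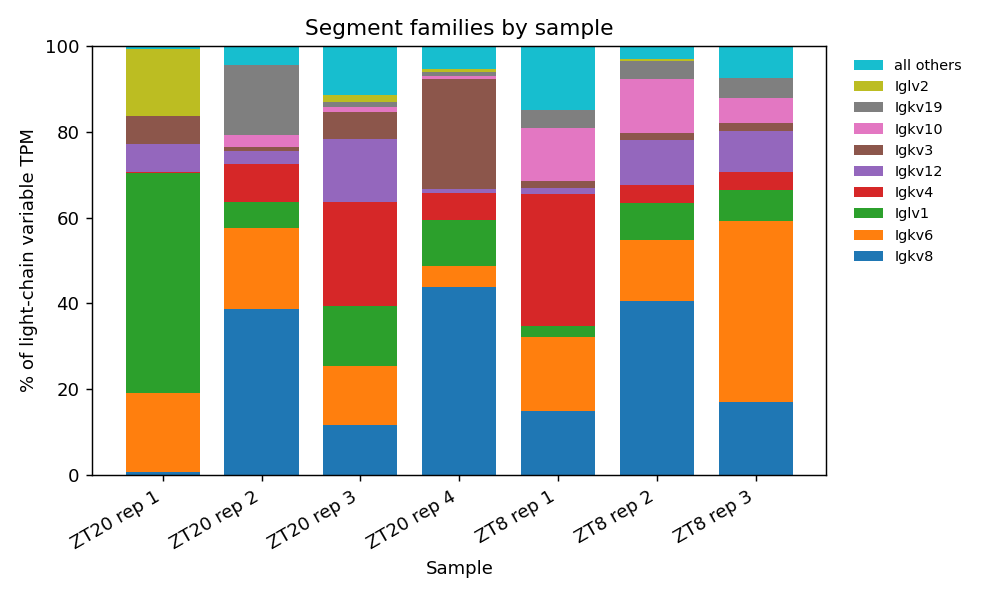
Stacked bars give the percentage of each library's light-chain variable TPM in the 9 families with the highest mean share and in all others together. Iglv1 and Iglv2 fill most of ZT20 replicate 1, Igkv8 is the largest family in ZT20 replicates 2 and 4 and ZT8 replicate 2, Igkv4 in ZT20 replicate 3 and ZT8 replicate 1, and Igkv6 in ZT8 replicate 3.

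In most cases 1 member of a near-identical pair held nearly all of the pair's TPM. There were 53 pairs with at least 95% identity, and 39 of them reached a joint 10 TPM in at least 1 library. Over the 134 cases of such a pair in such a library, the lesser member held under 5% of the pair's TPM in 93, 5% to 20% in 17 and at least 20% in 24. Igkv8-28 and Igkv8-19, printed above, are an example. ZT20 replicate 3 was at 148 TPM for Igkv8-28 and 0.217 TPM for Igkv8-19, whereas ZT8 replicate 3 was at 0.819 and 411 TPM. Igkv6-17 and Igkv6-25 likewise parted in ZT8 replicate 3, at 1561 and 0.401 TPM, but stood at 96.9 and 122 TPM in ZT8 replicate 1. Igkv4-70 was at 36.1 TPM beside the 2608 TPM of Igkv4-59 in ZT8 replicate 1, and above Igkv4-59, at 45.4 against 11.2 TPM, in ZT20 replicate 3. How reads common to 2 segments were shared out cannot be followed in TPM. Merging segments of at least 95% identity left the number needed for 50% of the TPM at 1, 3, 4 and 2 in ZT20 replicates 1 to 4 and at 3, 4 and 4 in the ZT8 replicates. The effective number after merging was 2.08, 7.22, 11.5 and 4.79 at ZT20 and 7.66, 8.22 and 7.94 at ZT8.

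The lambda segments were carried by Iglv1. Its level was 110, 154, 256 and 3.82 TPM in the ZT20 libraries and 278, 290 and 392 TPM in the ZT8 libraries. Every ZT8 library was above every ZT20 library, but the gap between ZT20 replicate 3 and ZT8 replicate 1 was small. The log2 difference of −2.22 (SE 1.18) did not pass (limma adjusted p = 0.215). It came to −0.95 without ZT20 replicate 4 (limma adjusted p = 0.101), and with the replicate block to −0.95, which passed (limma adjusted p = 0.0316). Iglv1 varied less over the ZT8 libraries than the leading kappa segments did. The 3 lambda segments together held 67.2%, 6.13%, 16.0% and 11.6% of the light-chain variable TPM at ZT20 and 2.76%, 8.85% and 7.29% at ZT8. ZT20 replicate 1 was the library in which lambda exceeded kappa. There the constant regions showed the same balance, with Iglc1, Iglc2 and Iglc3 making up 63.4% of the light-chain constant TPM, and in the other 6 libraries they made up 0.783% to 15.3%.

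Iglv2 was at 33.9, 1.33, 29.7 and 0.238 TPM at ZT20 and at 6.31, 11.6 and 0.175 TPM at ZT8. Its constant partner Iglc2 was at 39.3, 2.25, 36.7 and 1.07 TPM at ZT20 and at 6.63, 19.4 and 3.58 TPM at ZT8, so both were highest in ZT20 replicates 1 and 3. Iglc1, the constant gene set beside Iglv1 here, was at 115, 111, 238 and 0.906 TPM at ZT20 and at 59.3, 218 and 293 TPM at ZT8. Iglv1 was 0.952 to 1.39 times Iglc1 in 5 libraries, but 4.22 times in ZT20 replicate 4 and 4.69 times in ZT8 replicate 1. Iglc3 was left out of this ratio. It was at 1.71 TPM in ZT20 replicate 4, above Iglc1, and at 11.5 TPM in ZT8 replicate 1, below Iglc1. Iglv3 stayed at 0.135 to 8.12 TPM. Neither Iglv2 (log2 difference 0.65, SE 1.32, limma adjusted p = 0.756) nor Iglv3 (−1.07, SE 0.76, limma adjusted p = 0.344) passed. The sign for Iglv2 turned without ZT20 replicate 1, without ZT20 replicate 3 and without ZT8 replicate 3.

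The comparison of ZT20 with ZT8 was made for each segment on log2(TPM + 1), in a fit over all 14800 genes that averaged 1 TPM or more. This filter was passed by 65 of the 163 segments. A segment seen in few libraries passes it only where it is high, so the count of members below is a description. At a limma adjusted p under 0.05, 5 of the 65 segments were lower at ZT20 and 0 higher. Over all tested genes 3.61% were called lower and 12.8% higher. At an unadjusted p under 0.05 the numbers were 13 segments lower and 0 higher, with 8.61% and 26.0% of all genes. The 4 ZT20 values lay below the 3 ZT8 values without overlap for 6 segments and above them for 0, against 8.72% and 24.5% of all tested genes. The 6 were the 4 such segments described next, Iglv1, and Igkv17-121, which was at 0.161 TPM or less at ZT20 and 0.305, 3.07 and 151 TPM at ZT8. The median log2 difference was −1.67 over the 65 segments and 0.23 over all genes. The count depended on the libraries used: without ZT20 replicates 3 and 4, limma called 0 segments and 0 of 14687 genes, and an unadjusted p under 0.05 was found for 12 segments and 2378 genes. Leaving out single libraries gave 2 segments without ZT20 replicate 1, 2 without ZT20 replicate 4 and 10 without ZT8 replicate 2. Over all genes, in either direction, these fits called 1132 of 14767, 855 of 14777 and 3047 of 14821. The fit with all libraries called 2433 of 14800.

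The 5 called segments were Igkv8-21, Igkv4-55, Igkv10-96, Igkv4-59 and Igkv3-5. All are annotated as variable genes, as were 63 of the 65 segments tested. Igkv8-21 stood at 0, 23.4, 0.175 and 0.392 TPM at ZT20 and at 225, 98.9 and 435 TPM at ZT8. All ZT8 libraries were far above the ZT20 libraries, of which replicate 2 alone was above 1 TPM. The log2 difference was −6.41 (SE 1.07, limma adjusted p = 0.00918). Igkv4-55 was at 0, 0.665, 25.4 and 0 TPM at ZT20 and at 198, 66.6 and 159 TPM at ZT8. Here ZT20 replicate 3 was the high library of its group, and the groups did not overlap. The log2 difference was −5.65 (SE 1.08, limma adjusted p = 0.0132). Each of these segments was called in 15 of 16 alternative fits and in all 7 that left out 1 library. The exception was the fit without ZT20 replicates 3 and 4, with limma adjusted p = 0.152 and 0.0539.

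Igkv10-96 was at 0, 66.5, 22.9 and 0 TPM at ZT20 and at 1211, 435 and 321 TPM at ZT8. It was in the leading 3 of ZT8 replicates 1 and 2, and the groups did not overlap. The log2 difference was −6.45 (SE 1.47, limma adjusted p = 0.0231), and the call was lost without ZT20 replicate 1, ZT20 replicate 4 or ZT8 replicate 1. Igkv4-59, given above for ZT8 replicate 1, was at 0, 0.784, 11.2 and 0.213 TPM at ZT20 and at 19.0 and 50.5 TPM in ZT8 replicates 2 and 3. Its log2 difference was −5.94 (SE 1.57, limma adjusted p = 0.0360), and leaving out ZT8 replicate 1 brought it to −3.82. The call for Igkv4-59 was lost in 5 of the 7 fits that left out 1 library, namely each ZT20 replicate and ZT8 replicate 3. Igkv3-5 was low throughout, at 0, 5.65, 0.483 and 0 TPM at ZT20 and 26.6, 3.02 and 25.9 TPM at ZT8. Its groups overlapped, the log2 difference was −3.02 (SE 0.85, limma adjusted p = 0.0444), and the call was lost in 5 of those 7 fits, all but the ones without ZT20 replicate 2 and without ZT8 replicate 2. With the replicate number as a block, only Igkv8-21 and Igkv4-55 of the 5 passed.

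**Figure D5:**
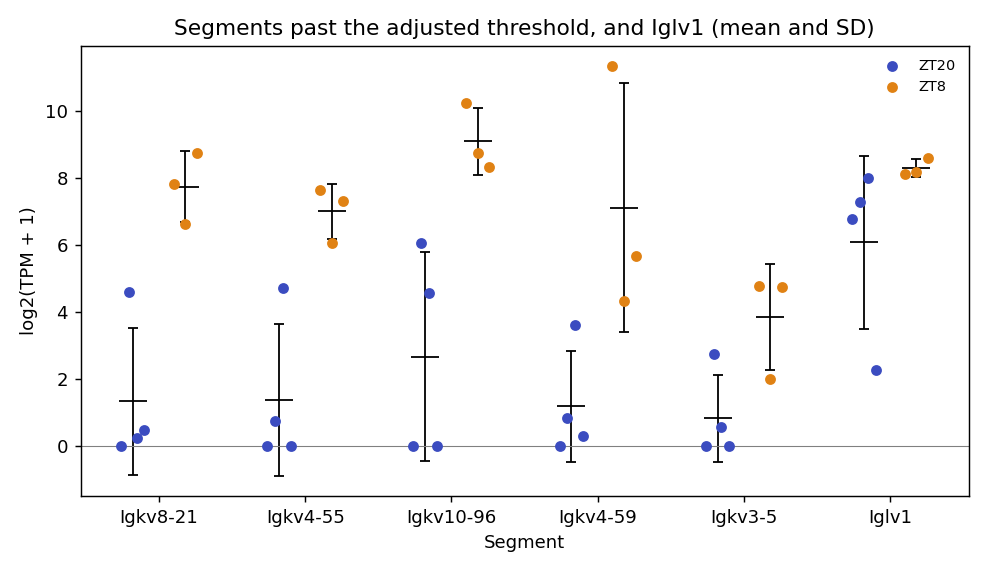
Points give log2(TPM + 1) per library for the 5 segments past the adjusted threshold and for Iglv1, ZT20 in blue (n = 4) and ZT8 in orange (n = 3), with black bars for the mean and SD. The groups overlap in Igkv3-5 only, and in Igkv8-21 and Igkv4-55 1 ZT20 library stands above the others.

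Igkv4-59 apart, the segments that led a library, and Igkv19-93 and Igkv4-80, did not pass. The log2 difference of Igkv8-30 was −3.29 (SE 2.74, limma adjusted p = 0.420), that of Igkv6-17 was −4.61 (SE 1.94, limma adjusted p = 0.131) and that of Igkv19-93 was −4.54 (SE 1.87, limma adjusted p = 0.124). Igkv8-28 and Igkv4-80 were higher at ZT20 by 2.32 (SE 1.69) and 1.94 (SE 1.67) on that scale, with limma adjusted p-values of 0.355 and 0.435. In each of these 5 the groups overlapped. Single libraries changed some of these values: Igkv6-17 passed without ZT8 replicate 2 (−7.25, limma adjusted p = 0.00829) and came to −2.30 without ZT8 replicate 3. Igkv19-93 passed without ZT20 replicate 2 (−6.30, limma adjusted p = 0.0200). Igkv3-4 passed without ZT20 replicate 3, Igkv8-27 without ZT8 replicate 1 and Igkv1-117 without ZT8 replicate 2, with limma adjusted p-values of 0.0368, 0.0424 and 0.0427. Igkv8-30 ran from −6.36 without ZT8 replicate 3 to −1.53 without ZT8 replicate 1.

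Genes that work with the light chains were followed in a list of 35: constant and joining segments, the recombination enzymes, surrogate light chains, and the proteins that fold and secrete antibody. Of these 17 were tested, and 2 passed lower at ZT20 and 0 higher, with 6 and 0 at an unadjusted p under 0.05. Over all tested genes the shares were 3.61% and 12.8%, and 8.61% and 26.0% unadjusted. The groups did not overlap for 4 tested partner genes lower at ZT20 and 1 higher, against 8.72% and 24.5% of all tested genes. The 2 that passed were Mzb1, a chaperone of antibody secretion in the endoplasmic reticulum, and Iglc3. Mzb1 was at 1.03, 9.28, 8.51 and 0 TPM at ZT20 and at 44.2, 17.9 and 23.9 TPM at ZT8 (log2 difference −2.88, SE 0.81, limma adjusted p = 0.0432). Iglc3 was at 0.453, 2.29, 2.34 and 1.71 TPM at ZT20 and at 11.5, 5.50 and 3.47 TPM at ZT8 (−1.48, SE 0.43, limma adjusted p = 0.0474). Both calls were lost in 6 of the 7 fits that left out 1 library: Mzb1 passed only without ZT20 replicate 2 (limma adjusted p = 0.0357) and Iglc3 only without ZT8 replicate 3 (0.0429). With the replicate block the limma adjusted p was 0.0942 and 0.138. Igkc itself did not pass (−4.02, SE 1.41, limma adjusted p = 0.0817), but it did without ZT20 replicate 2 (−4.98, limma adjusted p = 0.0459). Jchain, which links antibody units into polymers, did not pass (−3.19, SE 1.22, limma adjusted p = 0.102). Jchain was at 10.2, 176, 157 and 4.18 TPM at ZT20 and at 560, 195 and 317 TPM at ZT8, and the 7 libraries stood in the same order for Jchain and Igkc. Joining segments Igkj1 to Igkj5 were listed at 0 in every library. The recombination enzymes Rag1 and Rag2 were at most 0.108 TPM.

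Markers of B-lineage and other cells were measured in the same libraries. Their calls stand beside 3.61% of all tested genes called lower at ZT20 and 12.8% called higher. Of the 9 neuron markers, summed above, 1 was called higher at ZT20 and 0 lower. The 11 plasma cell markers summed to 273 to 495 TPM at ZT20 and 506 to 946 TPM at ZT8; 7 were tested, 1 was lower at ZT20 and none was at 0 throughout. Without Jchain the other 10 summed to 263, 319, 322 and 355 TPM at ZT20 and 385, 311 and 334 TPM at ZT8, so the groups then overlapped; most of this sum was Xbp1 and Sdc1. Mzb1, given above, and Pou2af1 did not overlap between the groups either, with Pou2af1 at 0.0329 to 1.13 TPM at ZT20 and 1.24 to 1.97 TPM at ZT8. Other markers of this list went the other way, with overlap. Tnfrsf17 reached 0.836 TPM at ZT20 and was at 0 in every ZT8 library. Tent5c averaged 1.85 TPM at ZT20 and 1.39 TPM at ZT8. Among the rest Sdc1 was at 75.7 to 151 TPM in all libraries, and the defining regulators Irf4 and Prdm1 were at most 0.675 TPM. The 11 B cell markers summed to 6.90 to 14.4 TPM at ZT20 and 10.3 to 16.7 TPM at ZT8, and 0 of 4 tested passed. The 6 T cell markers summed to 5.25, 17.3, 27.1 and 3.63 TPM at ZT20 and 45.1, 8.15 and 11.4 TPM at ZT8, lowest in the 2 libraries with the lowest segment sums and highest in the one with the highest; 0 of 5 tested passed. The 6 macrophage markers summed to 55.4 to 88.1 TPM at ZT20 and 80.8 to 189 TPM at ZT8, and 1 of 5 tested was lower at ZT20. C1qa was at 19.7 to 30.6 TPM at ZT20 and 43.0 to 91.8 TPM at ZT8. Cd163 went the other way, at 0.592 to 1.77 TPM at ZT20 and 0.175 to 0.482 TPM at ZT8. The groups overlapped for Adgre1, Cd68, Aif1 and Csf1r. The 5 erythrocyte markers, a sign of blood, summed to 5001, 2369, 4267 and 6679 TPM at ZT20 and 1603, 9534 and 951 TPM at ZT8. Within ZT20 their order was the reverse of that of the segment sums. Satellite glia markers summed to 6958 to 8431 TPM at ZT20 and 11757 to 14450 TPM at ZT8, and 2 of 5 were lower at ZT20. The part of any of these cells in the segment values was not tested.

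The heavy-chain variable segments (183 genes) gave a comparable picture of concentration. Their summed level was 68.7, 723, 960 and 9.45 TPM at ZT20 and 2859, 579 and 1714 TPM at ZT8, so the groups overlapped, unlike those of the light chains. The effective number of heavy segments was 1.91, 8.91, 8.60 and 4.62 at ZT20 and 13.6, 4.87 and 7.28 at ZT8. ZT20 replicate 1 was the most concentrated library for both chains. The most even library was ZT20 replicate 3 for the light chains and ZT8 replicate 1 for the heavy chains. No test of the difference between the chains was made.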

How the data were processed

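RNA sequencing libraries of 7 samples were analysed from the table the authors deposited, in TPM with 1 column per library. The submitters' processing notes name FastQC 0.11.9, Trim Galore 0.6.6, Salmon 1.6.0, DESeq2 1.34.0 and build GRCm39, without roles; the annotation release is not given in the sources used here. TPM keep no read counts, so depth and counting error are unknown.

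Genes averaging 1 TPM or more were fitted as log2(TPM + 1) with limma 3.58.1 (trend, R 4.3.3) over all 7 samples, two-sided, with Benjamini-Hochberg adjustment over 14800 genes; differences are ZT20 minus ZT8. A fold on this scale understates low genes. The fit was tested on simulated data. Segment usage was computed per library without tests. Coding sequences came from GENCODE M21 transcripts and were aligned with Biopython 1.88; identity needed at least 80% of the shorter sequence aligned.

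The members and lists were chosen with earlier results of these data known. Named were the 3 highest segments of each library, those with adjusted p under 0.05, those above 0 TPM in all libraries, the 3 lambda segments, and of the partner list Igkc, Iglc1 to Iglc3, Jchain and those past the threshold. Alternatives were another pseudocount, filters, scalings, weights, a block, merging of segments and leaving out libraries. Igkv17-121, Igkv4-73, the marker genes given singly and the relatives of the leading segments were named after their values were seen.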

Additional observations from a re-analysis of the deposited data

Results flagged for a closer look

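Among 38 values examined within ZT20, 15 had 1 library whose gap to its nearest neighbour passed the 95% critical value of Dixon's test for 4 libraries. Chance flags about 1 in 20 of unselected values only where these are normally distributed. The TPM here were untransformed, and many lay near 0. Most of these segments were also named because they were high in a library or were called. The number is therefore not to be read against that rate. ZT20 replicate 2 was the far library for Igkv8-30 at 741 TPM (others 0.193 to 11.8), Igkv19-93 at 419 TPM (0 to 23.0), Igkv6-32 at 233 TPM (0 to 9.53), Igkv8-21 at 23.4 TPM (0 to 0.392), Igkv4-68 at 19.6 TPM (0.172 to 0.201) and Igkv3-5 at 5.65 TPM (0 to 0.483). ZT20 replicate 3 was the far library for Igkv4-80 at 195 TPM (others 0 to 1.35), Igkv6-25 at 163 TPM (0 to 15.3), Igkv8-27 at 46.2 TPM (0 to 1.16), Igkv4-55 at 25.4 TPM (0 to 0.665), Igkv4-59 at 11.2 TPM (0 to 0.784) and Iglv3 at 8.12 TPM (0.135 to 0.577). These 12 segments thus split evenly between the 2 ZT20 libraries with the higher summed TPM. ZT20 replicates 1 and 4 summed to only 214 and 36.3 TPM, so they had little room to be the highest library.

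In ZT20 replicate 1 the lambda share stood at 67.2% against 6.13% to 16.0% in the other 3, and the kappa segments came to 0.786 times Igkc against 1.00. In ZT20 replicate 4 Iglv1 was at 4.22 times Iglc1, against 0.952 to 1.39 in the others, on a level of 3.82 TPM. Iglc3, which this ratio leaves out, was at 1.71 TPM there, above Iglc1 at 0.906 TPM. ZT8 replicate 1 was at 4.69 times on a level of 278 TPM, in a group to which this test was not applied. The cause was not tested for any of these values.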

How the results depend on the processing

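The number of segments lower at ZT20, 5 as reported, was 3 with a pseudocount of 0.1 or without the intensity trend, 2 without a filter, 10 with array weights, 0 without ZT20 replicates 3 and 4, and 2 (without ZT20 replicate 1 or 4) to 10 (without ZT8 replicate 2) over the fits that left out 1 library. It was 0 higher in every fit. Median-ratio scaling, which moved the median of all genes from 0.23 to 0.019, and quantile normalization each gave 6, among them all 5. Over all genes, calls in either direction came to 2433 of 14800 as reported. They came to 2225 with a pseudocount of 0.1, 2197 without the intensity trend and 3899 with array weights. Without a filter they came to 1178 of 31897. Median-ratio scaling gave 2342 and quantile normalization 1837. Partner genes lower at ZT20 went from 2 to 4 under median-ratio scaling, quantile normalization or an adjusted p threshold of 0.10, to 1 with a mean of at least 5 TPM, and to 0 with a pseudocount of 0.1, no filter, no intensity trend, the replicate block or without ZT20 replicates 3 and 4; leaving out 1 library gave 0 to 2.

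With the replicate number as a block 4 segments passed: Igkv8-21 and Igkv4-55 of the 5, Igkv3-4 and Iglv1. Same-numbered libraries correlated in their deviations from the group means by −0.0141, 0.153 and 0.0830 across genes. Libraries of unlike number gave −0.168 to 0.15. Whether the number marks a pairing was not tested.

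Among named genes, signs turned for some that did not pass. Leaving out 1 library gave −0.36 to 1.51 for Iglv2, −2.55 to 0.68 for Igkv6-25, −0.28 to 0.79 for Igkv4-68 and −0.50 to 0.93 for Iglc2. Igkv6-23 was at 0.67 without ZT20 replicates 3 and 4, Igkv6-25 at 0.070 with the block, and Igkv4-68 at −0.34 with a pseudocount of 0.1, −0.011 under quantile normalization and −0.0075 with array weights. Iglc2 was at −0.038 under median-ratio scaling and −0.17 under quantile normalization. The group differences of summed TPM, effective number, leading share, segments for 50% and lambda share moved by less than the SD pooled over both groups under each alternative, but several moved by more than the smaller SD between the ZT8 replicates. When 1 library was left out, the log2 summed TPM differed by −4.57 to −2.54, the effective number by −3.56 to 0.36 (−1.11 with all), the leading share by 2.17 to 14.6 percentage points (8.20 with all), the segments for 50% by −2 to −0.33 (−1 with all) and the lambda share by 4.97 to 25.3 percentage points (18.9 with all). Without ZT20 replicate 1 the effective number turned its sign, and the leading and lambda shares were at the low ends of those ranges. The cause of these changes was not tested. Unknown depth limits any reading of values near 0 TPM.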
